A study of Homo sapiens with 6 samples.

Results

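The platelet genes described here are 45 genes for the surface receptors, granule contents, granule release machinery, activation signalling and contractile proteins of blood platelets. They were taken as the rows whose gene symbol is on this list, and all 45 were found, once each, among the 19785 genes of the deposited table. OTX P/R cells, a derivative of the SET-2 line that persisted in and grew resistant to OTX, were compared with parental SET-2 cells, with 3 RNA sequencing libraries in each group. SET-2 is an established human leukemia line with megakaryoblast features, which the labels class as secondary acute myeloid leukemia. The series title concerns resistance to BET inhibitors, drugs that keep bromodomain proteins off acetylated chromatin, and OTX was taken to mean birabresib, a drug of that class. Both groups were exponentially growing cultures in serum-containing RPMI1640 labelled as untreated, so the labels name no drug that differs between them. Past exposure does differ, since the OTX P/R line was derived in OTX. The labels give 1 derivative line name and do not say whether it is a single clone. Resistance and any other change that arose while the line was derived are confounded and cannot be told apart. The 3 libraries of a group are called biologic replicates, and p-values measure the spread between these cultures.

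Platelets are released by megakaryocytes, which make the receptors, granules and cytoskeleton of the future platelet before they shed it. A platelet sticks to damaged vessel wall through the GPIb-IX-V complex, which binds von Willebrand factor, and through the collagen receptor GPVI. It is then activated further by thrombin, ADP and thromboxane through G protein-coupled receptors, releases its alpha and dense granules, and contracts. Many of these genes are known targets of GATA1, FLI1, RUNX1 and NFE2, the transcription factors of late megakaryocyte development.

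The deposited values are StringTie abundances per gene, which are scaled to transcript length, and the authors' table is quantile-normalized, which fixes the set of values in each library and leaves only gene ranks to differ. The sum of the values ranged from 419375 to 419437 over the 6 libraries because of that step. Sequencing depth is therefore unknown. Pairs of libraries correlated, across tested genes on the log2 scale, at 0.986 to 0.988 within groups and at 0.948 to 0.949 between them. The megakaryocyte character of the cells was visible in both groups. GATA1 averaged 203.9 ± 3.87 in OTX P/R cells and 188.7 ± 4.90 in parental cells (SD, n = 3 each), NFE2 averaged 193.1 ± 3.42 and 164.6 ± 5.25, and ITGA2B, the alpha chain of the platelet fibrinogen receptor, averaged 137.7 ± 3.73 and 216.0 ± 11.5, OTX P/R first. Of 9 genes of megakaryocyte identity 8 were tested, 6 rose, ITGA2B fell and GATA1 did not pass. GP9, GP1BA and PF4 on that list are also platelet genes described here, and GP9 and GP1BA are among the 6 rises. Over all tested genes, the background for this list and those below, 18.6% were higher and 17.5% lower. Of the 9, PF4 alone was listed at 0 in every library. The summed level of these 9 genes was 699 to 703 in OTX P/R libraries and 628 to 649 in parental libraries.

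Genes of other cell types were present too. Of 15 erythroid genes 13 were tested, 5 rose and 4 fell, with a summed level of 7510 to 8200 in OTX P/R libraries and 8460 to 9550 in parental libraries. Of 11 endothelial genes 5 were tested and 2 rose, ESAM and EGFL7, with a summed level of 242 to 255 in OTX P/R libraries and 116 to 143 in parental libraries; CDH5, KDR, TEK, ROBO4, EMCN and CLDN5 were under 1 in every library. Of 11 monocyte and macrophage genes 3 were tested and 2 fell, with a summed level of 195 to 218 in OTX P/R libraries and 324 to 354 in parental libraries, and CD163 and S100A8 were listed at 0 throughout. Of 9 T and NK cell genes present, 4 were tested and all 4 fell, with a summed level of 51.3 to 54.8 in OTX P/R libraries, against 116 to 124 in parental libraries. Of those 4 genes CD3D and GZMB reached the filter only through the parental group and had to differ, as did HBB of the erythroid list, while EPB42 of that list and CPA3 of the mast cell list reached it only through the OTX P/R group. Of 6 genes of leukemia blasts and progenitors 4 were tested, 1 rose and 2 fell, with a summed level of 144 to 152 in OTX P/R libraries and 171 to 181 in parental libraries, and FLT3 was listed at 0 throughout. Of 11 smooth muscle and fibroblast genes only DES, a muscle filament protein, passed the filter on low values, and it fell. DES averaged 3.12 ± 1.72 in OTX P/R cells and 18.8 ± 1.43 in parental cells. The summed level of this list was 5.31 to 7.92 in OTX P/R libraries and 19.3 to 22.4 in parental libraries. Below the filter, COL1A1 went the other way, at a mean of 1.92 in OTX P/R cells and 0.0732 in parental cells, without overlap. COL1A2, COL3A1, PDGFRB and PDGFRA, all under 1, were lower in every OTX P/R library. Of 7 mast cell and basophil genes 6 were tested, 2 rose and 3 fell, with summed levels of 632 to 675 and 552 to 572, OTX P/R first. The part of these lists in the results on platelet genes was not tested. In such bulk RNA a change in the share of cells that express a gene and a change in RNA per cell cannot be told apart.

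More platelet genes were higher than lower in OTX P/R cells. Of the 45 genes 34 averaged 1 or more across the 6 libraries and were tested, and 11 did not. Of the 34 tested genes 17 rose, 7 fell and 10 did not pass, at a limma adjusted p under 0.05. That is 50% higher and 20.6% lower, where 18.6% of all 10741 tested genes were higher and 17.5% were lower, 36.1% in either direction. The median log2 fold change was 0.34 over the tested platelet genes and 0.02 over all tested genes. The ratio of the means was at least 2 for 12 of the genes that rose and at most 0.5 for 3 that fell, where 3.95% of all tested genes rose and 4.59% fell by as much. The OTX P/R libraries all lay above the parental libraries for 19 tested members and all below them for 7, where this was so for 26.8% and 24.9% of all tested genes, 51.6% in either direction. MMRN1, TBXAS1 and RAB27B reached the filter only through the group in which they were high, so they had to differ, and these counts are a description of the list.

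**Figure D1:**
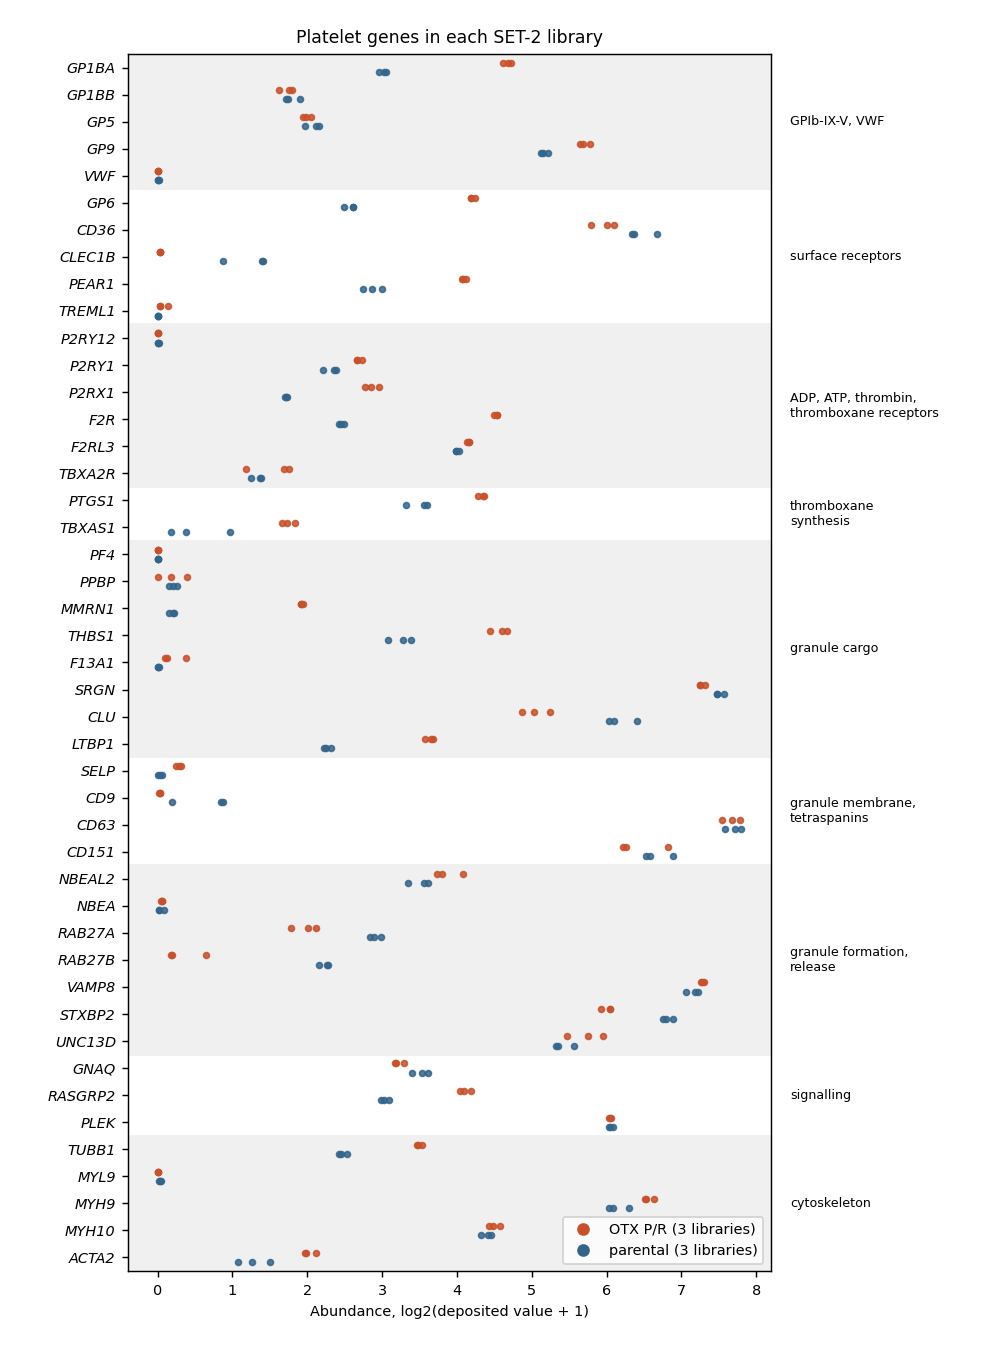
Abundance of the 45 platelet genes in each library, as log2(deposited value + 1), with OTX P/R libraries drawn above parental libraries in each row and genes grouped by role. GP1BA, GP6, F2R, MMRN1 and LTBP1 show the widest gaps upward and RAB27B the widest downward, while PF4, VWF and P2RY12 sit at or near 0 in both groups.

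By role, both tested thromboxane synthesis genes rose, as did 4 of 5 tested receptors for ADP, ATP, thrombin and thromboxane and 3 of 4 tested cytoskeleton genes, and none of these groups had a gene that fell. Of 6 tested genes of granule formation and release none rose and 3 fell. The tested granule cargo genes split into 3 that rose and 2 that fell. TBXAS1 and MMRN1 among these rises and RAB27B among these falls reached the filter only through their higher group, so they had to differ. These groups hold few genes each, beside shares of 18.6% higher and 17.5% lower over all tested genes, and differences between roles were not tested.

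**Figure D2:**
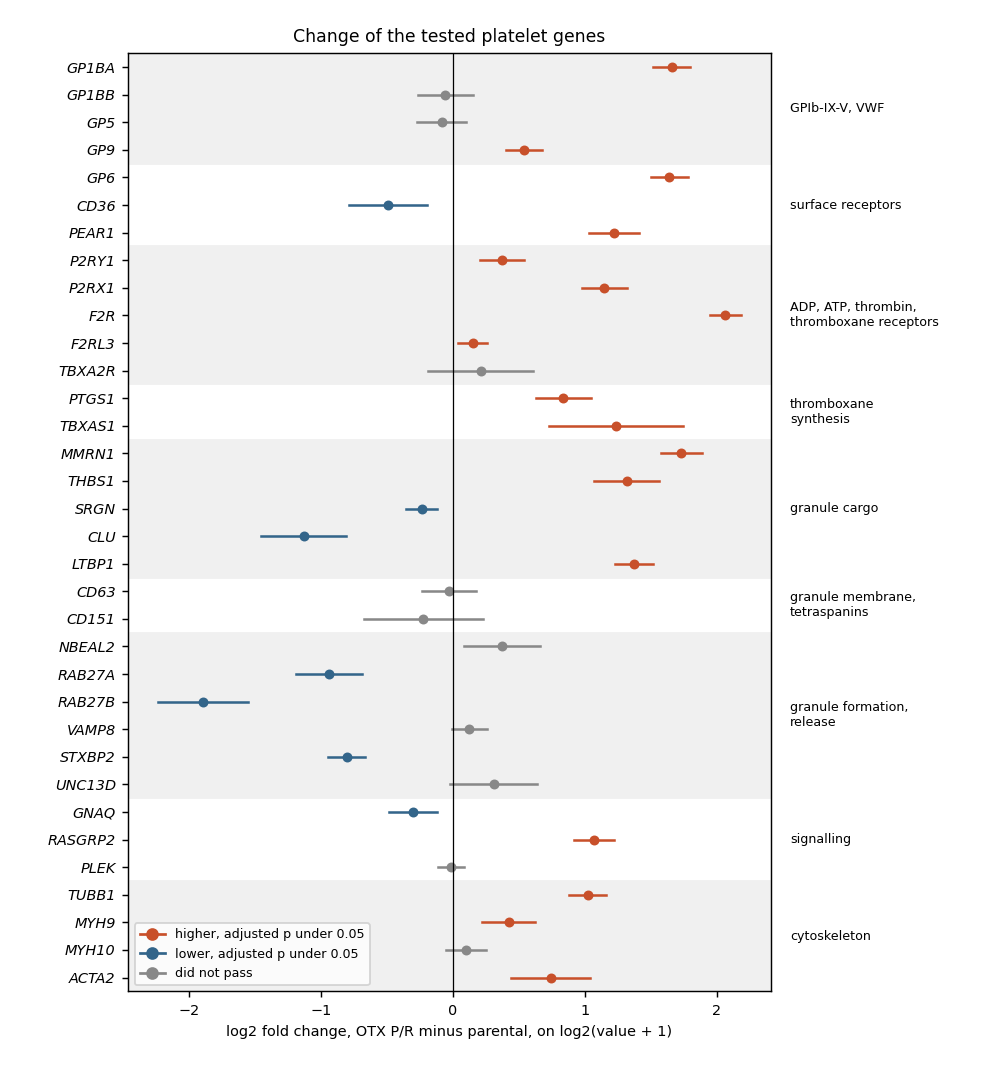
log2 fold change, OTX P/R minus parental, on the log2(value + 1) scale for the 34 tested platelet genes, with 95% intervals from limma and colour by call. The receptors lie mostly to the right of 0, from 2.06 for F2R downward, and RAB27B, RAB27A and STXBP2 of the release machinery lie to the left, with RAB27B at -1.90.

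The start regions of 6 members that stood apart between the lines are printed next, as examples of members that were higher and of members that were lower: GP9, GP6, TUBB1 and RASGRP2 rose, RAB27B fell, and CLEC1B was near 0 in OTX P/R libraries and between 0.831 and 1.65 in parental libraries. The windows are those of RefSeq on GRCh38.p14, from 250 bases before to 50 bases after an annotated start, and are written 5′ to 3′ on the strand of the gene. Capitals mark matches, on either strand, to a few short words. Those for GATA factors were AGATAA, with the variants AGATAG, also TGATAA, and lastly TGATAG. Those for ETS factors were AGGAAG, with the variant CGGAAG. Those for RUNX factors were TGTGGT, with the variant TGCGGT. That for NFE2 was TGACTCA.
GP9, chr3:129060529-129060828, plus strand: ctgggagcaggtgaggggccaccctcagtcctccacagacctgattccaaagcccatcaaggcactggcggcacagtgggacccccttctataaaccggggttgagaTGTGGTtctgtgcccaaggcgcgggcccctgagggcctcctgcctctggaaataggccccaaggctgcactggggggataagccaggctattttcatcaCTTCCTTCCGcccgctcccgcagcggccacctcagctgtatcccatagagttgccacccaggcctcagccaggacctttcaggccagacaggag
GP6, chr19:55038215-55038514, minus strand: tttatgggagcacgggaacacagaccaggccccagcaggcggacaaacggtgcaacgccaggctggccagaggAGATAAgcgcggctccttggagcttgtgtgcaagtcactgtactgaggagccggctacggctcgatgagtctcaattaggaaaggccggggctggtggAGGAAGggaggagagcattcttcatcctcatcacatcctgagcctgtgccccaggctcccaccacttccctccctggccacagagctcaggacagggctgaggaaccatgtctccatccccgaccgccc
TUBB1, chr20:59019179-59019478, plus strand: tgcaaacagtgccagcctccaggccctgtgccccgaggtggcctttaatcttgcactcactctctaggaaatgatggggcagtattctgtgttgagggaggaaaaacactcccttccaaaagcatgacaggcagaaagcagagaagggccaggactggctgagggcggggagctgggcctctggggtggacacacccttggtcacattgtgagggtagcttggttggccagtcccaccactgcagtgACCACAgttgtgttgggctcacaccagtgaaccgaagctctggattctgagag
RASGRP2, chr11:64745299-64745598, minus strand: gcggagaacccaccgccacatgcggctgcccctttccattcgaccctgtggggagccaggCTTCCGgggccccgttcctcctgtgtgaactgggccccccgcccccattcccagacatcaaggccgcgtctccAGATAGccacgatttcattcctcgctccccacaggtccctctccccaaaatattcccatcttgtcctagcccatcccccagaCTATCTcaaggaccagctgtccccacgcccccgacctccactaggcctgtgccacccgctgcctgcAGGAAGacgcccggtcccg
RAB27B, chr18:54717607-54717906, plus strand: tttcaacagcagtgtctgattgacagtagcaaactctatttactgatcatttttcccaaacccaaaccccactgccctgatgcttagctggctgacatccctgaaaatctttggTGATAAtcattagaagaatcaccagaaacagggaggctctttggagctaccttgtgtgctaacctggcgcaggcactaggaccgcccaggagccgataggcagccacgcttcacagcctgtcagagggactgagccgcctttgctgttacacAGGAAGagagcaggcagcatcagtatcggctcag
CLEC1B, chr12:9999072-9999371, minus strand: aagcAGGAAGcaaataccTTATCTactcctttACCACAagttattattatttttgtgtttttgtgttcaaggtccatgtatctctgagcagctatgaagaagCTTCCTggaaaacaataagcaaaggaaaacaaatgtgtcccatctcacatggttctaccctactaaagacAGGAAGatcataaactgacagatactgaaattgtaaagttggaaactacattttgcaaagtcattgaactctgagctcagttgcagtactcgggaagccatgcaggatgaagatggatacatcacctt
The GP6 window held 1 GATA word and 1 ETS word, and the RASGRP2 window held 2 of each. The GP9 window held 2 ETS words that overlap each other in 1 stretch of capitals, and 1 RUNX word. The TUBB1 window held 1 RUNX word, and the RAB27B window, 1 of 2 for that gene, held 1 GATA word and 1 ETS word. The other RAB27B window, which is not shown, held 1 NFE2 word. The CLEC1B window held words of all but the NFE2 kind. Windows were at hand for 34 of the 45 members, of which 20 had a single window. Among those 20, a GATA word was in 7 (35.0%), an ETS word in 16 (80%), a RUNX word in 10 (50%) and the NFE2 word in none, where of all 35116 windows 25% held a GATA word, 46.9% an ETS word, 19.6% a RUNX word and 4.95% the NFE2 word. Among the 10 of them that rose, 2 held a GATA word, 8 an ETS word and 4 a RUNX word. Over every window of the 34 members, the NFE2 word was in 3 members, of which 2 fell and none rose. In none of the 6 windows shown did words of different kinds overlap. These matches describe letters in a window, and binding was not measured.

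The chains of the von Willebrand factor receptor moved unequally. GP1BA, the chain that binds von Willebrand factor, had values of 24.6, 25.4 and 23.4 in OTX P/R libraries, against 7.17, 7.29 and 6.75 in parental libraries. All OTX P/R libraries lay far above the parental ones, a ratio of means of 3.46 and a log2 fold change of 1.66 ± 0.06 SE (limma adjusted p = 1.63e-05). GP9, a small chain that the complex needs to reach the surface, had values of 53.9, 50.2 and 48.9 in OTX P/R libraries, against 33.7, 36.1 and 34.6 in parental libraries. The groups did not overlap, and GP9 rose by a log2 fold change of 0.54 ± 0.06 SE. GP1BB, which is disulfide-linked to GP1BA, averaged 2.32 ± 0.199 in OTX P/R cells and 2.46 ± 0.252 in parental cells and missed the threshold (log2 fold change -0.06, 95% interval -0.27 to 0.15). GP5, the loosely attached chain that thrombin cleaves, averaged 2.99 ± 0.159 and 3.23 ± 0.283, OTX P/R first, and did not pass either (-0.08, interval -0.27 to 0.10). The libraries of the groups overlapped for both of these chains. GP1BB lies inside an annotated read-through with the neighbouring gene on the same strand, so its reads could be split by the counting. VWF, the ligand, which megakaryocytes and endothelial cells make, did not exceed 0.013 in any library.

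Among the other surface receptors GP6 and PEAR1 rose and CD36 fell. GP6 encodes GPVI, the receptor through which collagen activates platelets. It had values of 17.2, 17.9 and 17.3 in OTX P/R libraries, against 5.08, 5.09 and 4.62 in parental libraries. The groups lay far apart, with a ratio of means of 3.54 and a log2 fold change of 1.64 ± 0.06 SE (limma adjusted p = 1.83e-05). PEAR1, a receptor that is phosphorylated when platelets touch each other, had values of 15.8, 15.9 and 16.4 in OTX P/R libraries, against 6.99, 6.31 and 5.68 in parental libraries. It rose by a log2 fold change of 1.22 ± 0.08 SE with no overlap, and the 24 tested genes nearest to it on its chromosome had a median of 0.27. CD36, a scavenger receptor for thrombospondin and oxidized lipids, had values of 54.4, 63.4 and 67.7 in OTX P/R libraries, against 101.2, 81.7 and 79.7 in parental libraries. It fell by 0.49 on the log2 scale (limma adjusted p = 0.0228), and the call was lost without OTX P/R replicate 1 (adjusted p = 0.06) or without OTX P/R replicate 2 (adjusted p = 0.0569).

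CLEC1B and TREML1 did not reach the filter. CLEC1B encodes CLEC-2, the platelet receptor for podoplanin. Its values were 0.0192, 0.0182 and 0.0206 in OTX P/R libraries, against 1.65, 1.62 and 0.831 in parental libraries. The groups were far apart at a low level, and with no filter on low values it passed downward (log2 fold change -1.20, limma adjusted p = 0.00426). TREML1, a protein of alpha granules that reaches the surface on activation, was listed at 0 in the parental libraries and did not exceed 0.102 in OTX P/R libraries.

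The thrombin receptor F2R was among the members with the widest difference. F2R encodes PAR1, the high-affinity thrombin receptor of human platelets, and had values of 22.1, 21.6 and 22.1 in OTX P/R libraries, against 4.48, 4.35 and 4.63 in parental libraries. The OTX P/R values were all above the parental ones by a wide margin, a ratio of means of 4.89 and a log2 fold change of 2.06 ± 0.05 SE (limma adjusted p = 5.51e-06). F2R lies on chromosome 5, and its 24 nearest tested genes had a median log2 fold change of -0.01. F2RL3, which encodes PAR4, the low-affinity thrombin receptor, had values of 16.6, 16.8 and 16.9 in OTX P/R libraries, against 14.8, 14.9 and 15.4 in parental libraries. The groups did not overlap but were close, with a log2 fold change of 0.15 ± 0.04 SE. Its call (limma adjusted p = 0.0462) was lost whichever single library was left out, with adjusted p from 0.0706 to 0.125, and with a variance prior that ignores the mean (adjusted p = 0.0529).

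The receptors for nucleotides and thromboxane ranged from a clear rise to no call. P2RX1, the ATP-gated cation channel of platelets, had values of 5.81, 6.79 and 6.19 in OTX P/R libraries, against 2.28, 2.26 and 2.30 in parental libraries. It rose by a log2 fold change of 1.15 ± 0.07 SE with no overlap. Its 24 nearest tested genes on chromosome 17 centred on a log2 fold change of 0.30 (median), with 13 that rose. Over all tested genes 18.6% rose. The part of these neighbours in the result was not tested. P2RY1, the ADP receptor that starts shape change, averaged 5.45 ± 0.172 in OTX P/R cells and 3.99 ± 0.304 in parental cells and rose by 0.37 ± 0.07 SE on the log2 scale. P2RY12, the ADP receptor blocked by clopidogrel, was listed at 0 in 5 of 6 libraries and at 0.00862 in parental replicate 3. TBXA2R, the thromboxane receptor, had values of 1.27, 2.38 and 2.22 in OTX P/R libraries, against 1.38, 1.60 and 1.58 in parental libraries. The groups overlapped through OTX P/R replicate 1, and the gene missed the threshold (log2 fold change 0.21, interval -0.19 to 0.61). Without that library its log2 fold change was 0.39 and it passed (limma adjusted p = 0.0274).

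Both enzymes that make thromboxane rose. PTGS1, the cyclooxygenase that aspirin inhibits in platelets, had values of 19.3, 19.6 and 18.5 in OTX P/R libraries, against 11.1, 9.00 and 10.8 in parental libraries. The groups were clearly apart, with a log2 fold change of 0.84 ± 0.08 SE. TBXAS1, thromboxane synthase, had values of 2.57, 2.30 and 2.17 in OTX P/R libraries, against 0.957, 0.131 and 0.295 in parental libraries. Every OTX P/R value exceeded the highest parental one, and the gene reached the filter only through the OTX P/R group. The ratio of means was 5.10, and the log2 fold change was 1.24, 2.41 with a pseudocount of 0.1 and 0.43 with 5. It lies on chromosome 7 among genes that were higher together. The median of its 24 nearest tested genes was 0.67 and 17 of them rose, where 18.6% of all tested genes rose. The part of these neighbours in the change of TBXAS1 was not tested.

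Granule cargo genes moved both ways, and the classical platelet chemokines were scarcely measured. PF4, platelet factor 4, was listed at 0 in all 6 libraries. PPBP, the precursor of beta-thromboglobulin, did not exceed 0.319 in any library, and its groups overlapped. F13A1, the A chain of clotting factor XIII, was at 0.0888, 0.0695 and 0.306 in OTX P/R libraries and did not exceed 0.0098 in parental libraries. These 3 genes did not reach the filter.

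MMRN1, LTBP1 and THBS1 rose. MMRN1 encodes multimerin 1, which binds factor V in alpha granules, and had values of 2.77, 2.85 and 2.76 in OTX P/R libraries, against 0.116, 0.168 and 0.148 in parental libraries. The parental libraries were near 0, so the gene reached the filter only through the OTX P/R group and had to differ. The ratio of means was 19.4, and the log2 fold change was 1.73 on the log2(value + 1) scale, 3.58 with a pseudocount of 0.1 and 0.60 with 5. LTBP1, which holds latent TGF-beta, had values of 11.5, 10.9 and 11.8 in OTX P/R libraries, against 3.99, 3.66 and 3.77 in parental libraries. THBS1, thrombospondin 1, had values of 23.4, 20.7 and 24.4 in OTX P/R libraries, against 9.48, 7.49 and 8.74 in parental libraries. For both genes all OTX P/R libraries were higher, a log2 fold change of 1.37 ± 0.06 SE for LTBP1 and one of 1.32 ± 0.10 SE for THBS1.

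CLU and SRGN fell, and both were abundant. CLU, clusterin, a secreted chaperone stored in alpha granules, had values of 36.7, 31.8 and 28.2 in OTX P/R libraries, against 67.6, 83.5 and 64.6 in parental libraries. The groups did not overlap, the ratio of means was 0.448 and CLU fell by 1.13 on the log2 scale (limma adjusted p = 0.00127). SRGN, serglycin, the proteoglycan that retains cargo inside granules, had values of 151.2, 150.9 and 157.7 in OTX P/R libraries, against 176.2, 177.1 and 189.6 in parental libraries. The difference was small but without overlap, and SRGN fell by 0.24 on the log2 scale.

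Neither tested tetraspanin passed. CD63, a tetraspanin of dense granules and lysosomes, was the most abundant member, at 202.4 ± 16.4 in OTX P/R cells and 207.1 ± 16.1 in parental cells (log2 fold change -0.03, interval -0.24 to 0.17). CD151, a tetraspanin that associates with integrins, had values of 75.7, 112.0 and 73.8 in OTX P/R libraries, against 94.3, 117.2 and 91.2 in parental libraries. OTX P/R replicate 2 lay within the parental range, and the gene did not pass (-0.23, interval -0.68 to 0.23). CD9, an abundant tetraspanin of platelets, did not reach the filter. Its values were 0.0182, 0.0158 and 0.0192 in OTX P/R libraries, against 0.798, 0.825 and 0.141 in parental libraries, with every OTX P/R library below the parental ones. With no filter on low values CD9 did not pass (log2 fold change -0.61, limma adjusted p = 0.0766). SELP, P-selectin, which moves from granule membranes to the surface, was at 0.215, 0.189 and 0.243 in OTX P/R libraries and at 0.0203, 0.00781 and 0.0381 in parental libraries. All OTX P/R values were higher at this very low level, and with no filter on low values SELP passed upward (log2 fold change 0.25, limma adjusted p = 8.74e-04).

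Members of the secretion machinery were lower or did not pass. RAB27B, the Rab GTPase that in mice is needed for dense granule secretion, had values of 0.561, 0.137 and 0.139 in OTX P/R libraries, against 3.81, 3.47 and 3.83 in parental libraries. The parental libraries were all far higher, and the gene reached the filter only through them. The log2 fold change was -1.90, -3.51 with a pseudocount of 0.1 and -0.72 with 5. RAB27A, its close relative, known for the release of lytic granules and melanosome transport, had values of 3.34, 3.03 and 2.43 in OTX P/R libraries, against 6.93, 6.43 and 6.14 in parental libraries. It fell by 0.94 on the log2 scale, a ratio of means of 0.451 with no overlap (limma adjusted p = 0.001). STXBP2, which encodes Munc18-2, a chaperone of granule syntaxins, had values of 65.0, 65.0 and 59.9 in OTX P/R libraries, against 106.4, 117.6 and 110.3 in parental libraries. The groups were well apart and STXBP2 fell by 0.81 on the log2 scale (limma adjusted p = 1.95e-04). The 24 tested genes nearest to it on chromosome 19 had a median of -0.26, and 12 of them fell. Over all tested genes 17.5% fell. The part of these neighbours in the result was not tested. RAB27A, RAB27B and STXBP2 each overlap another annotated gene on the same strand, as does GP6 among the receptors. Whether the counting used strand is not given, so reads could be shared at these overlaps and between members and genes on the opposite strand.

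The other members of this machinery did not pass. UNC13D, which encodes Munc13-4, a priming factor, had values of 43.3, 52.7 and 60.6 in OTX P/R libraries, against 46.5, 39.0 and 39.7 in parental libraries. OTX P/R replicate 1 lay below the highest parental library, and the interval of the log2 fold change was -0.02 to 0.64. Without that replicate the log2 fold change was 0.43 and the gene passed (limma adjusted p = 0.0374). VAMP8, the main vesicle SNARE of platelets, averaged 154.4 ± 2.42 in OTX P/R cells and 141.7 ± 8.43 in parental cells (interval -0.01 to 0.26). NBEAL2, whose loss causes gray platelet syndrome with empty alpha granules, had values of 12.96, 12.3 and 15.9 in OTX P/R libraries, against 10.8, 9.12 and 11.3 in parental libraries. All OTX P/R libraries were above the parental ones, and the gene narrowly missed the threshold (log2 fold change 0.37, limma adjusted p = 0.0544). NBEA, a neuronal relative of NBEAL2, did not exceed 0.0569 in any library.

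Of the 3 signalling genes 1 rose and 1 fell, and 3 of the 4 tested cytoskeleton genes rose. RASGRP2 encodes CalDAG-GEFI, the calcium-sensitive exchange factor that switches on Rap1 and with it the integrins. It had values of 16.0, 17.2 and 15.5 in OTX P/R libraries, against 7.17, 7.51 and 6.93 in parental libraries. Every OTX P/R value was above 15 while no parental value reached 8, and the log2 fold change was 1.07 ± 0.06 SE (limma adjusted p = 8.37e-05). GNAQ, the G protein subunit that links PAR1, P2RY1 and the thromboxane receptor to phospholipase C, averaged 8.30 ± 0.424 in OTX P/R cells and 10.48 ± 0.834 in parental cells and fell by 0.30 on the log2 scale (limma adjusted p = 0.023). Its call was lost without OTX P/R replicate 1 or 2 or parental replicate 1 or 3, with adjusted p from 0.0628 to 0.0766. PLEK, pleckstrin, the main protein kinase C substrate of platelets, had values of 65.4, 64.9 and 64.2 in OTX P/R libraries, against 65.2, 64.4 and 67.1 in parental libraries. The groups overlapped, and the interval of the log2 fold change was narrow, -0.11 to 0.08.

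TUBB1, the beta-tubulin of the platelet marginal band, had values of 10.6, 10.1 and 10.1 in OTX P/R libraries, against 4.48, 4.38 and 4.78 in parental libraries. It rose by a log2 fold change of 1.02 ± 0.06 SE with no overlap. MYH9, the nonmuscle myosin heavy chain of platelets, had values of 91.0, 90.2 and 98.5 in OTX P/R libraries, against 77.6, 64.2 and 66.6 in parental libraries. It rose by 0.42 ± 0.08 SE on the log2 scale. MYH10, the related chain that is normally silenced as megakaryocytes mature, averaged 21.6 ± 1.14 in OTX P/R cells and 20.1 ± 0.940 in parental cells and did not pass (interval -0.05 to 0.25). ACTA2, the smooth muscle actin, averaged 3.07 ± 0.239 and 1.45 ± 0.367, OTX P/R first, and rose by 0.74 ± 0.12 SE on the log2 scale. MYL9, a myosin light chain, was listed at 0 in the OTX P/R libraries and at 0.0123, 0.0219 and 0.030 in parental libraries; with no filter on low values it passed downward, at values close to 0.

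**Figure D3:**
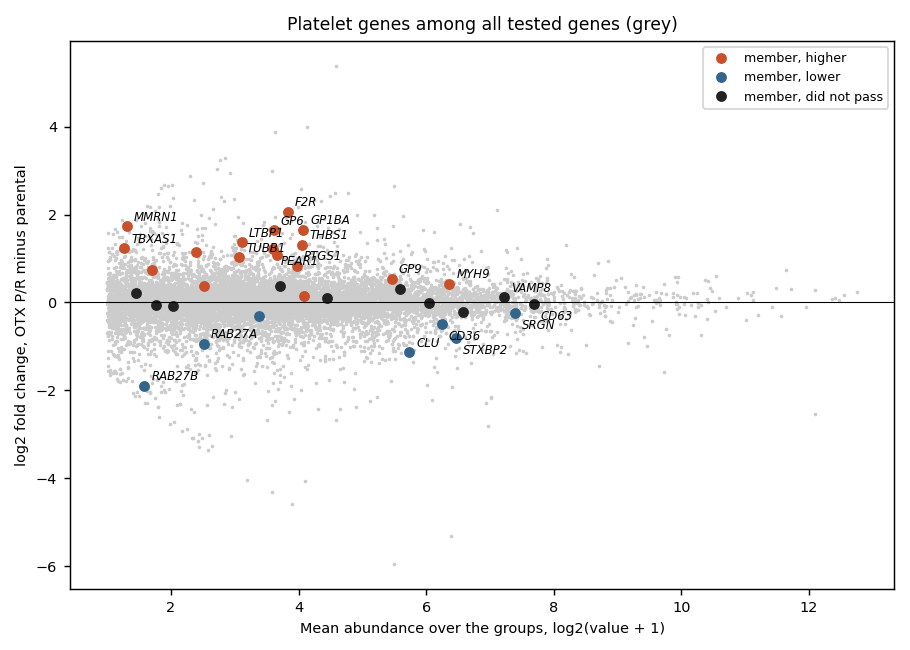
log2 fold change, OTX P/R minus parental, against the mean abundance over the groups, as log2(value + 1), for all 10741 tested genes (grey) and the 34 tested platelet genes (coloured by call). Platelet genes that rose lie mostly at low to middle abundance, and CLU, CD36, STXBP2 and SRGN, which fell, lie among the abundant members.

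Members were also divided by abundance, a division made after the values were seen. Of 9 members with a mean of at least 50 over the libraries, 1 rose (MYH9), 4 fell (CD36, CLU, SRGN and STXBP2) and 4 did not pass. Of 25 members with a mean from 1 to 50, 16 rose, 3 fell (GNAQ, RAB27A and RAB27B) and 6 did not pass. This class holds MMRN1 and TBXAS1, which rose, and RAB27B, all of which had to differ because of the filter. Among all tested genes the shares were 21.0% higher and 18.8% lower at a mean of at least 50, and 18.2% higher and 17.3% lower below it. The difference between the classes was not tested.

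Pairs of related members were compared within each library. Of 9 pairs listed, 4 had both genes above the filter. The log2 ratio of F2RL3 to F2R was -0.40, -0.34 and -0.37 in OTX P/R libraries, against 1.53, 1.57 and 1.54 in parental libraries. On the deposited per-length scale F2RL3 was thus below F2R in every OTX P/R library and above it in every parental library. The log2 ratio of RAB27B to RAB27A averaged -1.63 ± 0.178 in OTX P/R cells and -0.67 ± 0.094 in parental cells (SD, n = 3 each). That of MYH10 to MYH9 averaged -2.06 ± 0.0316 and -1.74 ± 0.093, OTX P/R first. For these 3 pairs the groups did not overlap. For F2RL3 with F2R and MYH10 with MYH9 the exact two-sided permutation test gave p = 0.1, the smallest that 3 libraries against 3 allow, and 0.133 adjusted over the 4 pairs. RAB27B and TBXAS1 reached the filter only through their higher group, so their pairs are a description with no test. The difference for RAB27B to RAB27A was -0.96, and it was -2.37 with a pseudocount of 0.1 and -0.185 with 5. The log2 ratio of TBXAS1 to PTGS1 averaged -2.59 ± 0.0729 in OTX P/R cells and -2.99 ± 0.309 in parental cells, with overlap through parental replicate 1. The sign of this last difference turned with a pseudocount of 5 (-0.228), and it was 1.52 with 0.1.

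**Figure D4:**
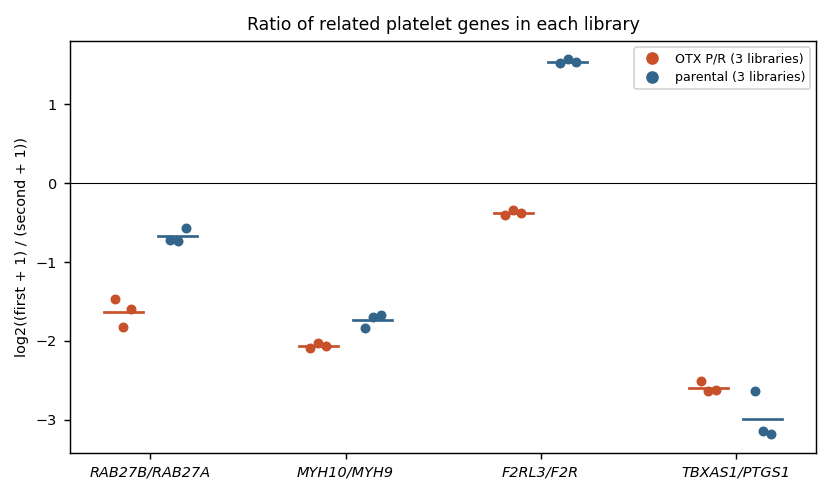
log2 ratio of related members within each library, log2((first + 1) / (second + 1)), with OTX P/R libraries left of parental libraries and lines at the group means. The F2RL3 to F2R ratio lies below 0 in the OTX P/R libraries and above 1.5 in the parental libraries.

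Other genes of megakaryocyte and platelet biology were counted in the same way. Of 119 symbols on the list of such genes 113 were in the table and 90 were tested, of which 32 rose (35.6%), 13 fell (14.4%) and 45 did not pass. Over all tested genes 18.6% were higher and 17.5% lower, so the share that fell was near that background. The median log2 fold change of the list was 0.16. Among the leading rises by size were ESAM, a junction protein of platelets and endothelium (76.4 ± 2.39 in OTX P/R cells and 11.6 ± 2.54 in parental cells), ADRA2A, the platelet adrenaline receptor (5.53 ± 0.420 and 0.424 ± 0.0294), and ITGB3, the beta chain of the fibrinogen receptor (21.0 ± 1.04 and 4.83 ± 0.585). The chains of that receptor went opposite ways. ITGA2B, its alpha chain, fell by a log2 fold change of -0.64 (limma adjusted p = 3.17e-04). APBB1IP, an adaptor between Rap1 and talin, had a log2 fold change of 1.73, while that of FLI1, the ETS factor of megakaryocytes, was 1.37. ADRA2A and CD226 reached the filter only through the OTX P/R group and CTTN only through the parental group, so these 3 had to differ.

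The leading falls in that list were SPARC and TIMP1, secreted proteins that platelets store, CTTN, a cortical actin binder, STX11, ANGPT1 and FYN. SPARC averaged 13.6 ± 1.12 in OTX P/R cells and 43.3 ± 2.37 in parental cells. STX11, the syntaxin that Munc18-2 chaperones in platelets, averaged 1.46 ± 0.138 and 4.19 ± 0.193, OTX P/R first, and fell by 1.07 on the log2 scale, beside the fall of STXBP2. By group, 6 of 11 tested transcription factors rose and none fell, while of 12 tested cargo and surface genes 1 rose and 4 fell. Of 20 tested granule formation and release genes 4 rose (20.0%), 3 fell (15.0%) and 13 did not pass. Those shares were near the 18.6% higher and 17.5% lower over all tested genes. Differences between these groups were not tested.

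**Figure D5:**
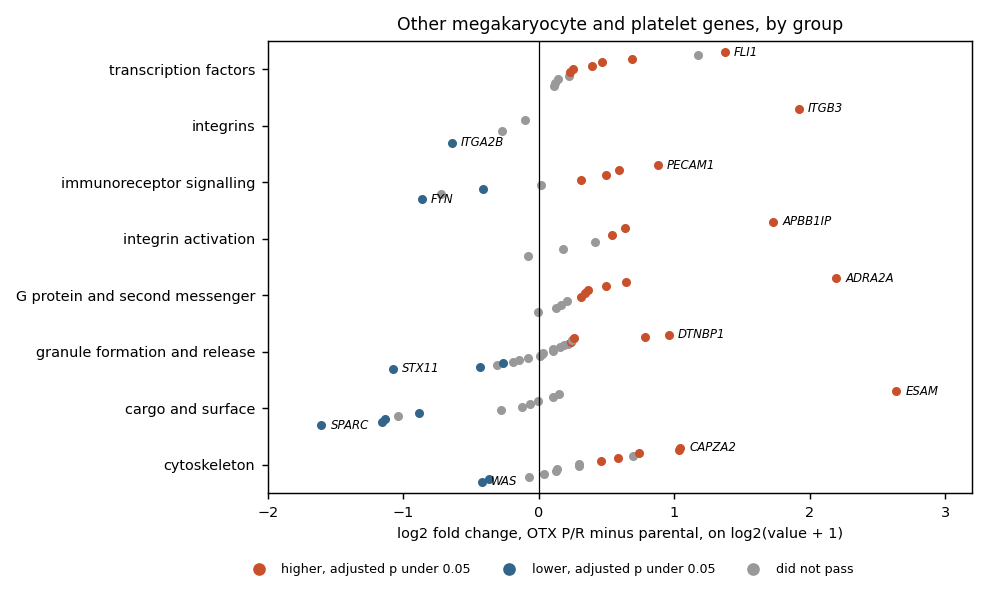
log2 fold change, OTX P/R minus parental, on log2(value + 1), of tested megakaryocyte and platelet genes outside the members, by group, without 1 group of 5 tested genes that is not drawn, with colour by call and the outermost called genes named. ESAM, ADRA2A and ITGB3 lie farthest to the right and SPARC farthest to the left.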

How the data were processed

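Total RNA of 6 cultures, 3 per group, was sequenced. The submitters' processing notes name the tools Trim Galore, HISAT2 and StringTie and the genome hg19, without versions. The deposited table holds a linear signal for each gene, its abundance from StringTie, and does not state whether that is FPKM or TPM. Once sorted, the libraries' values were within 0.243% of each other wherever they reached 1, as after quantile normalization by the authors; depth is unknown and no counting interval is given.

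Of 19785 genes, 6 with a missing value were left out. On log2(value + 1), limma 3.58.1 (R 4.3.3, trended prior, two-sided) was fitted to the 10741 genes whose linear mean reached 1. Benjamini-Hochberg adjustment covered all of them, and genes with an adjusted p below 0.05 were called. Fold changes on this scale understate low genes; means and SDs are linear. Ratios of pairs were tested by exact permutation. The members, lists, named-gene rule and tests were chosen with earlier results of these data known. The rule names all members and, per list, up to 6 called genes per direction and the markers that check the labels; examples outside it were chosen after their values were seen, and 1 gene it names is not reported here. Chromosomes and neighbours came from GENCODE v29 on GRCh38, for 19528 genes; neighbours are the 12 nearest tested genes on each side. Same-numbered libraries did not deviate together (r = -0.0647, -0.0277 and -0.000294). The fit was tested on simulated data with 200 changed genes. Python 3.11.15, pandas 2.3.3, NumPy 2.4.6, SciPy 1.17.1 and Matplotlib 3.10.9 were used.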

Additional observations from a re-analysis of the deposited data

How the results depend on the processing

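Every count of members kept within 1.5 times its value when the pseudocount was 0.1 or 5, when low genes were all kept or a mean of 5 was required, with the prior untrended or made robust, after median centring, with the replicate block and with each library left out. All genes called numbered 3879, and 3019 to 3483 with a library left out. Members that rose numbered 16 to 18 with a library left out and 12 where a mean of 5 was required, which leaves fewer members tested, and members that fell numbered 5 to 7 with a library left out. With the replicate block 3159 genes were called, and among the members 17 rose and 6 fell; CD36 (adjusted p = 0.0793) and F2RL3 (0.108) no longer passed and NBEAL2 did (0.0288). The labels give the shared numbers no meaning, and no OTX P/R library deviated most like the parental library of its own number. Of the 17 members that rose 16, and of the 7 that fell 5, kept direction and call in every alternative that could be fitted for them; F2RL3, CD36 and GNAQ are the exceptions. Members that did not pass changed sign, at values near 0, when a library was left out: GP1BB ranged from -0.0942 to 0.000377, CD63 from -0.0935 to 0.0277 and PLEK from -0.029 to 0.000742. The pseudocount sets the size of low genes: MMRN1 had a log2 fold change of 3.58 with 0.1 and 0.60 with 5, RAB27B -3.51 and -0.72, and TBXAS1 2.41 and 0.43. The difference in the log2 ratio of RAB27B to RAB27A was -0.96, and -2.37 with a pseudocount of 0.1 and -0.185 with 5; that of F2RL3 to F2R was -1.92, -2.11 and -1.39; that of TBXAS1 to PTGS1 was 0.40, 1.52 and, with the sign turned, -0.23. For these the alternative's own construction moves the value. Without the filter CLEC1B, SELP and MYL9 were also called.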

Other observations

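The neighbourhoods of the members on their chromosomes were examined as values only. Of the 45 members 2, P2RX1 and TBXAS1, had a median log2 fold change of at least 0.3 in size over the 24 nearest tested genes, and both rose. Among members that were called, this median ranged from -0.26 around STXBP2 to 0.67 around TBXAS1. It was 0.27 around GP1BA, with 9 of 24 neighbours higher, where 18.6% of all tested genes were higher. The median was 0.06 around GP6, -0.11 around MMRN1, -0.07 around LTBP1 and 0.06 around THBS1. Around the members that fell it was -0.09 for RAB27A, -0.04 for RAB27B and -0.02 for CLU.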
